A study of Mus musculus with 11 samples.

Results

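The genes described here encode fibronectin and the matricellular proteins periostin (Postn), tenascin C (Tnc), osteopontin (Spp1), SPARC (Sparc) and 4 thrombospondins (Thbs1, Thbs2, Thbs3 and Thbs4). They were taken by symbol from a table of counts per gene, in which all 9 were found among 46517 gene identifiers, and all 9 passed the filter on low counts that left 14619 genes for testing. The 11 bulk RNA-seq libraries were of ventricular myocardium from mice that were 10 to 12 weeks old at surgery. The groups were 3 KO TAC, 3 WT TAC, 3 KO sham and 2 WT sham libraries. KO mice were Lmnb2 fl/fl with Tnnt2-Cre, a recombinase driven by the cardiac troponin T promoter and active in cardiomyocytes, so that other heart cells keep Lmnb2, which encodes lamin B2 of the nuclear lamina. Controls, called WT as in the labels, carried Tnnt2-Cre too, which every group therefore shares. WT sham 2 was labelled WT and the other controls Lmnb2 WT. TAC, transverse aortic constriction, narrows the aorta and loads the left ventricle with pressure, and sham mice had surgery without the constriction. How long after surgery tissue was taken is not stated in those sources.

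Fibronectin is a fibril-forming glycoprotein that integrins assemble into a provisional matrix, and collagen is laid down on it. Matricellular proteins are secreted into the matrix but act less as scaffold than as modulators of how cells adhere, migrate and respond to growth factors, among them TGF-beta. In the adult heart most of them are scarce at rest and appear after injury or overload, chiefly from activated fibroblasts, with osteopontin made largely by macrophages. The question put to each gene was what TAC did in each genotype, and whether the level or the response differed between libraries labelled KO and WT.

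The genes lie on 8 chromosomes of GRCm38, at the GENCODE M21 positions that follow. Postn (ENSMUSG00000027750) runs from 54361109 to 54391037 on the plus strand of chromosome 3, and Thbs3 (ENSMUSG00000028047) from 89215180 to 89226837 on the same strand. Tnc (ENSMUSG00000028364) spans 63959785 to 64047015 on the minus strand of chromosome 4, and Spp1 (ENSMUSG00000029304) spans 104435118 to 104441050 on the plus strand of chromosome 5. Sparc (ENSMUSG00000018593) is on the minus strand of chromosome 11 from 55394500 to 55423183, and Fn1 (ENSMUSG00000026193) on the minus strand of chromosome 1 from 71585520 to 71653200. Thbs1 (ENSMUSG00000040152) occupies 118111876 to 118127133 on the plus strand of chromosome 2. Thbs2 (ENSMUSG00000023885) occupies 14665500 to 14694235 on the minus strand of chromosome 17, and Thbs4 (ENSMUSG00000021702) occupies 92751590 to 92794818 on the minus strand of chromosome 13. The strand setting of the authors' counting is not stated in the sources, so reads in exons shared with another gene may be split or lost. Exons of Thbs3 overlap those of Mtx1 on the opposite strand over 318 bases, 6.59% of the exonic bases of Thbs3, and Mtx1 held 1775 counts over all libraries against 932 for Thbs3. Exons of Spp1 overlap Gm42793 on the same strand over 309 bases, but Gm42793 held 5 counts against 2637 for Spp1. Gene counts do not separate the splice forms of Fn1 and Tnc.

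Since all 9 genes rose in WT and 8 of 9 in KO after TAC, as described below, promoter windows from 250 bases before to 50 bases after the start site were read from RefSeq on GRCm38.p6 for the 7 of 9 genes in the table used, which lacked Thbs1 and Fn1. Of the 10 windows, those shown are the nearest to the annotated gene start for Postn, Tnc, Spp1 and Thbs4, because each holds one of the motifs searched on the strand of the gene. They lie at chr3:54360857-54361156 (plus strand), chr4:64046966-64047265 (minus strand), chr5:104434861-104435160 (plus strand) and chr13:92794769-92795068 (minus strand), are written 5′ to 3′, and carry the matches in capitals.
Postn: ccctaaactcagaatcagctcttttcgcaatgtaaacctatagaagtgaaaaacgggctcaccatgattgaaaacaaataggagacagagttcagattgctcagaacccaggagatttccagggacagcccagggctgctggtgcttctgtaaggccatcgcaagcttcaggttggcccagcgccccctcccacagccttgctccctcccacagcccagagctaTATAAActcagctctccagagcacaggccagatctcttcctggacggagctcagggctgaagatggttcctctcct
Tnc: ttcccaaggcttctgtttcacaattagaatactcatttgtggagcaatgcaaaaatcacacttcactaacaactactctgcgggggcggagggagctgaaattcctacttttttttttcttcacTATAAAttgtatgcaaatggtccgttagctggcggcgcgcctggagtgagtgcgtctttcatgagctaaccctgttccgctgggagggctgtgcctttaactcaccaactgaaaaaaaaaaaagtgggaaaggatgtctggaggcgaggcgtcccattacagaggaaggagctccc
Spp1: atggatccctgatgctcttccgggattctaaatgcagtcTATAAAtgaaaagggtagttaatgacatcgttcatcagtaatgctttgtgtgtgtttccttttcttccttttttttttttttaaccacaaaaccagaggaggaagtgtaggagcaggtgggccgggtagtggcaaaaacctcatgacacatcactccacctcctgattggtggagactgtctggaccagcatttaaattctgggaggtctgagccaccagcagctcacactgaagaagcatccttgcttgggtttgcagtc
Thbs4: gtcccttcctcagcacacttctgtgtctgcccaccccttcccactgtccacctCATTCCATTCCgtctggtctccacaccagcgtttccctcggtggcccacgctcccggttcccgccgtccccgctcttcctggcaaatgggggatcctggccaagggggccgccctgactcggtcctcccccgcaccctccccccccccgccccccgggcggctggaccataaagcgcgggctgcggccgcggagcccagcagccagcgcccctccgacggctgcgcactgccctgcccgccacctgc
The motifs were TATAAA (the TATA box), TGANTCA (bound by AP-1, with N any base) and CATTCC (the M-CAT element bound by TEAD factors), each searched on both strands. TATAAA began 26 bases before the start site in Postn, 126 bases before it in Tnc and 211 bases before it in Spp1. Thbs4 held CATTCC at 197 and again at 192 bases before the start site, as a pair that overlaps by 1 base. TATAAA was in 5 of the 10 windows, against 13.6% of 32817 promoters of the same length. Of these 5, those not shown were a second Tnc window, which overlaps the one shown and holds the same match, and the Thbs2 window, with a match on the opposite strand at 126 bases before the start site. CATTCC was in 1 of 10, against 14.7% of all promoters, and TGANTCA was in 0 of 10, against 7.81%. A match describes the letters and is neither a site in use nor a cause of the changes below.

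Totals ran from 14770383 to 17333227 counts per library, and 3 counts equalled 0.143 to 0.278 CPM (counts scaled to a common library size, after TMM). Lmnb2, the targeted gene, averaged 5.81 ± 3.45 CPM in KO TAC, 3.91 ± 2.44 CPM in WT TAC, 1.63 ± 0.905 CPM in KO sham and 4.15 ± 0.411 CPM in WT sham (SD, n = 3, 3, 3 and 2). It was lower in each KO sham than in each WT sham library, but the TAC groups overlapped with the higher mean in KO, so directions given for KO below refer to libraries labelled KO. The libraries hold heart muscle RNA by 8 cardiomyocyte markers such as Myh6 and Tnnt2, of which none was at 0. The markers summed to 39807 to 43456 CPM in KO TAC and 35031 to 44489 CPM in WT TAC. In sham libraries they summed to 60804 to 64777 CPM in KO and 55740 to 68801 CPM in WT. Markers of this list do not tell ventricle from atrium, so the ventricular part of the label was not checked. The share of counts from the mitochondrial genome moved with surgery, at 22.3% to 35.9% in KO TAC and 13.2% to 30.5% in WT TAC, against 38.5% to 46.4% in KO sham and 32.8% to 49.4% in WT sham, and its part in the responses below was not tested. Bulk counts cannot tell fewer cells of a type from less RNA per cell. The labels name separate samples but do not state how tissue was split or pooled, so p-values measure the spread between these libraries.

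After TAC all 9 genes had estimates above 0 in both genotypes, from 0.76 log2 units (Thbs2 in KO) to 6.95 (Postn in WT). In WT all 9 rose and in KO 8 of 9 rose, with Thbs2 the exception, whereas the test called 6.92% of all genes in WT (3.88% higher and 3.04% lower) and 4.7% in KO (3.32% higher and 1.37% lower). Tnc, with 3 to 8 counts in each sham library, passed the filter on low counts through TAC libraries alone. It had to be high there, so its part in these counts is a description. Tests are edgeR quasi-likelihood tests with Benjamini-Hochberg adjustment over all 14619 genes and a threshold of 0.05. The median log2 fold change of the 9 genes was 3.39 in KO and 3.73 in WT, against 0.03 and 0.05 over all genes tested. With libraries scaled by their totals, without the TMM factor, the median over all genes moved to 0.49 in KO and 0.37 in WT. The calls then split into 1325 higher and 60 lower genes in KO and 1044 higher and 133 lower in WT, against 486 and 201 in KO and 567 and 444 in WT under TMM. All 9 genes stayed above sham under totals as well. In both genotypes each TAC library exceeded each sham library for all 9 genes, a separation that 13% of all genes showed in KO and 19.1% in WT. Summed over the 9 genes the level was 2141 to 3454 CPM in KO TAC, 2920 to 4940.0 CPM in WT TAC, 432 to 521 CPM in KO sham and 243 to 326 CPM in WT sham. They held 0.265% to 0.396% of all counts in KO TAC and 0.346% to 0.506% in WT TAC, against 0.0377% to 0.0413% in KO sham and 0.0195% to 0.0304% in WT sham.

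**Figure D1:**
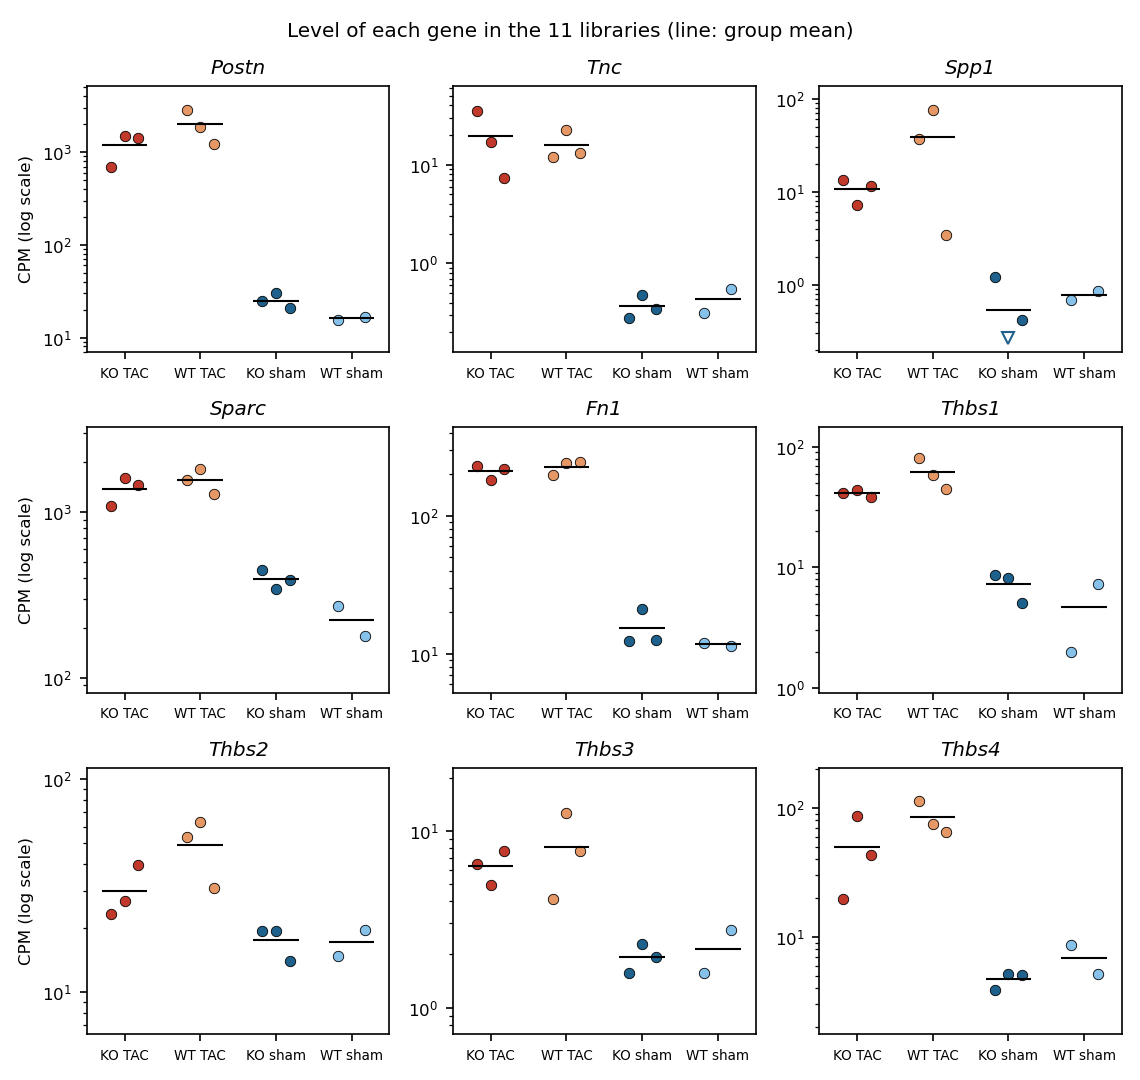
Level of each of the 9 genes in the 11 libraries, in CPM on a log axis, with 1 panel per gene, 1 point per library and a line at the group mean. The open triangle in the Spp1 panel marks KO sham 2, which had 0 counts. In every panel the 6 TAC libraries lie above the 5 sham libraries. KO and WT are apart for Thbs1 after TAC and for Postn, Sparc, Fn1 and Thbs4 after sham, and overlap otherwise. The margins are narrow for Thbs1, Fn1 and Thbs4.

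Postn encodes periostin, which binds collagen and promotes its cross-linking and which marks activated cardiac fibroblasts. It measured 691, 1484 and 1432 CPM in KO TAC 1 to 3 and 2879, 1881 and 1231 CPM in WT TAC 1 to 3. In sham libraries it measured 24.7, 29.9 and 20.6 CPM in KO and 15.4 and 16.8 CPM in WT. The lowest TAC library, KO TAC 1, thus stood 23.1 times above the highest sham library, and the TAC groups overlapped. Postn rose by 5.58 ± 0.45 log2 units in KO (47.9-fold; standard error; edgeR adjusted p = 0.000176) and by 6.95 ± 0.58 in WT (124-fold; adjusted p = 0.000302). Among all 14619 genes it had the smallest p in WT and ranked 2 in KO. With the share of ribosomal protein transcripts as covariate the rise in WT was 6.16. Both calls held under each of the 21 alternative settings tried, with an adjusted p of at most 0.00652 in KO and 0.0259 in WT. One setting used the 8 libraries whose titles end in M, the others ending in F, letters the labels do not explain, and was chosen after seeing the data.

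Fn1 encodes fibronectin. It measured 231, 180.1 and 219 CPM in KO TAC and 196, 239 and 244 CPM in WT TAC, compared with 12.3, 21.1 and 12.5 CPM in KO sham and 11.9 and 11.4 CPM in WT sham. Its 6 TAC values differed by 1.36 times from lowest to highest, a narrower band than the other 8 genes showed (1.67 times for Sparc to 22.1 times for Spp1), and the genotypes overlapped within it. Fn1 rose by 3.78 ± 0.30 log2 units in KO (13.7-fold; edgeR adjusted p = 0.000176) and by 4.28 ± 0.36 in WT (19.4-fold; adjusted p = 0.000302). It had the smallest p of all genes in KO and ranked 2 in WT, and neither call was lost under any of the 21 settings. WT TAC 3 and KO TAC 1, the lowest libraries of their groups for Postn, were the highest of their groups for Fn1.

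Tnc encodes tenascin C, a large hexameric glycoprotein of the embryonic heart that returns at sites of injury and loosens cell adhesion. It measured 34.9, 16.8 and 7.38 CPM in KO TAC and 11.9, 22.4 and 13.2 CPM in WT TAC, compared with 0.278, 0.483 and 0.347 CPM in KO sham and 0.313 and 0.551 CPM in WT sham. The sham values rest on 3, 8 and 5 counts in KO and 5 and 7 counts in WT, so the size of the rise is poorly fixed. The TAC groups overlapped, and the KO TAC libraries spread 4.73-fold, with KO TAC 1 the highest of all. Tnc rose by 5.68 ± 0.62 log2 units in KO (edgeR adjusted p = 0.000954) and by 5.20 ± 0.73 in WT (adjusted p = 0.00337). Without KO TAC 1 the rise in KO was 4.94, and in titles ending in M it was 6.34. In WT it was 6.02 with the share of ribosomal protein transcripts as covariate, and without WT sham 1 the call in WT was lost, with a rise of 4.83 and an adjusted p of 0.0774.

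Spp1 encodes osteopontin, a phosphorylated glycoprotein that binds integrins and CD44 and that macrophages secrete during repair. It measured 13.5, 7.22 and 11.4 CPM in KO TAC and 37.2, 75.8 and 3.43 CPM in WT TAC, compared with 1.20, 0 and 0.417 CPM in KO sham and 0.688 and 0.866 CPM in WT sham. KO sham 2 had 0 counts, which allows up to 0.181 CPM, and the other sham libraries had 6 to 13 counts. Within WT TAC the values spread 22.1-fold, the widest spread of any of the genes in a TAC group, with WT TAC 3 below all KO TAC libraries and the other WT TAC libraries above them. Spp1 rose by 4.43 ± 1.06 log2 units in KO (edgeR adjusted p = 0.0336) and by 5.64 ± 1.25 in WT (adjusted p = 0.0225). The call in KO was lost without KO TAC 2, KO TAC 3, any KO sham or either WT sham library, with rises of 3.76 to 5.71 and adjusted p of 0.0507 to 0.136, with limma-voom (rise 5.56, adjusted p = 0.247) and in titles ending in M (rise 3.74, adjusted p = 0.218), which makes 9 of 21 settings. In WT it was lost in 6 of 21, without WT TAC 1, WT TAC 2 or either WT sham library (rises of 4.71 to 5.79, adjusted p of 0.0536 to 0.187), with limma-voom (rise 4.72, adjusted p = 0.191) and in titles ending in M (rise 5.67, adjusted p = 0.0750), and with the share of ribosomal protein transcripts as covariate the rise was 4.66.

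Sparc encodes a calcium-binding and collagen-binding protein that takes part in the assembly of collagen fibrils. It measured 1080.3, 1604 and 1458 CPM in KO TAC and 1564, 1808 and 1279.7 CPM in WT TAC, compared with 449, 346 and 388 CPM in KO sham and 271 and 179 CPM in WT sham. Its TAC groups overlapped, and all 3 KO sham libraries lay above both WT sham libraries. Sparc rose by 1.81 ± 0.29 log2 units in KO (3.50-fold; edgeR adjusted p = 0.00527) and by 2.79 ± 0.36 in WT (6.89-fold; adjusted p = 0.00214). In titles ending in M the call in KO was lost (rise 1.69, adjusted p = 0.0853), and the call in WT held under all settings.

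The thrombospondins are multidomain glycoproteins of calcium-binding modules, of which Thbs1 and Thbs2 form trimers that restrain vessel growth and Thbs3 and Thbs4 form pentamers. Thbs1, which can activate latent TGF-beta and binds CD36 and CD47, measured 41.4, 43.7 and 38.3 CPM in KO TAC and 81.1, 58.6 and 45.0 CPM in WT TAC, compared with 8.71, 8.21 and 5.07 CPM in KO sham and 2.00 and 7.32 CPM in WT sham. All KO TAC libraries were below all WT TAC libraries, by a small margin at WT TAC 3. It rose by 2.49 ± 0.41 log2 units in KO (5.61-fold; edgeR adjusted p = 0.00623) and by 3.73 ± 0.52 in WT (13.3-fold; adjusted p = 0.00333). The rise in WT turned on the 2 sham libraries, being 3.07 without WT sham 1 and 4.93 without WT sham 2, and the call in KO was lost in the libraries with titles ending in M (rise 2.65, adjusted p = 0.0724).

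Thbs2, whose loss in mice disturbs collagen fibrils, was the thrombospondin with the smallest shift. It measured 23.2, 26.8 and 39.4 CPM in KO TAC and 53.6, 62.8 and 30.8 CPM in WT TAC, compared with 19.4, 19.4 and 14 CPM in KO sham and 14.8 and 19.5 CPM in WT sham. The lowest KO TAC library was close to the sham libraries, and the TAC groups overlapped through KO TAC 3 and WT TAC 3. The log2 fold change was 0.76 ± 0.31 in KO (edgeR adjusted p = 0.203, unadjusted p = 0.0304, as 19.3% of all genes had an unadjusted p under 0.05) and 1.52 ± 0.36 in WT (adjusted p = 0.0294). The call in WT was lost in 8 of 21 settings, on leaving out WT TAC 1, WT TAC 2 or either WT sham library (1.31 to 1.72, adjusted p from 0.0787 to 0.230), with the title letter or the ribosomal protein share as covariate (1.39 and 1.07), in titles ending in M (1.46) and from the 2 WT groups alone (1.51). In KO the gene was called under library totals (1.23, adjusted p = 0.0241) and without both KO TAC 1 and WT TAC 3 (0.88, adjusted p = 0.0381).

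Thbs3, a pentameric thrombospondin, measured 6.48, 4.97 and 7.66 CPM in KO TAC and 4.11, 12.6 and 7.69 CPM in WT TAC, compared with 1.58, 2.29 and 1.95 CPM in KO sham and 1.56 and 2.76 CPM in WT sham. WT TAC 2 was the highest and WT TAC 1 the lowest TAC library, so the TAC groups overlapped, and each TAC library was above each sham library. It rose by 1.71 ± 0.43 log2 units in KO (edgeR adjusted p = 0.0433) and by 1.92 ± 0.50 in WT (adjusted p = 0.0408), both near the threshold. Each call was lost in 11 of 21 settings. In KO these include leaving out any KO library or either WT sham library (1.58 to 1.87, adjusted p from 0.0544 to 0.163). In WT they include leaving out WT TAC 2, KO TAC 2, any KO sham or either WT sham library (1.47 to 2.36, adjusted p from 0.0544 to 0.268).

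Thbs4, which in mouse heart is induced by pressure load and acts in the endoplasmic reticulum stress response, measured 19.7, 86.6 and 43.1 CPM in KO TAC and 113, 74.8 and 64.9 CPM in WT TAC, compared with 3.89, 5.19 and 5.07 CPM in KO sham and 8.63 and 5.20 CPM in WT sham. KO TAC 1 was the lowest TAC library and the KO TAC libraries spread 4.39-fold, so the TAC groups overlapped through KO TAC 2. It rose by 3.39 ± 0.49 log2 units in KO (10.5-fold; edgeR adjusted p = 0.00308) and by 3.60 ± 0.58 in WT (12.2-fold; adjusted p = 0.00597). Without KO TAC 2 the rise in KO was 2.73, and with the share of ribosomal protein transcripts as covariate the rise in WT was 2.75. The call in WT was lost without WT sham 1 (4.02, adjusted p = 0.0773) and without WT sham 2 (3.28, adjusted p = 0.0956), and the call in KO in the libraries with titles ending in M (3.56, adjusted p = 0.0506).

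**Figure D2:**
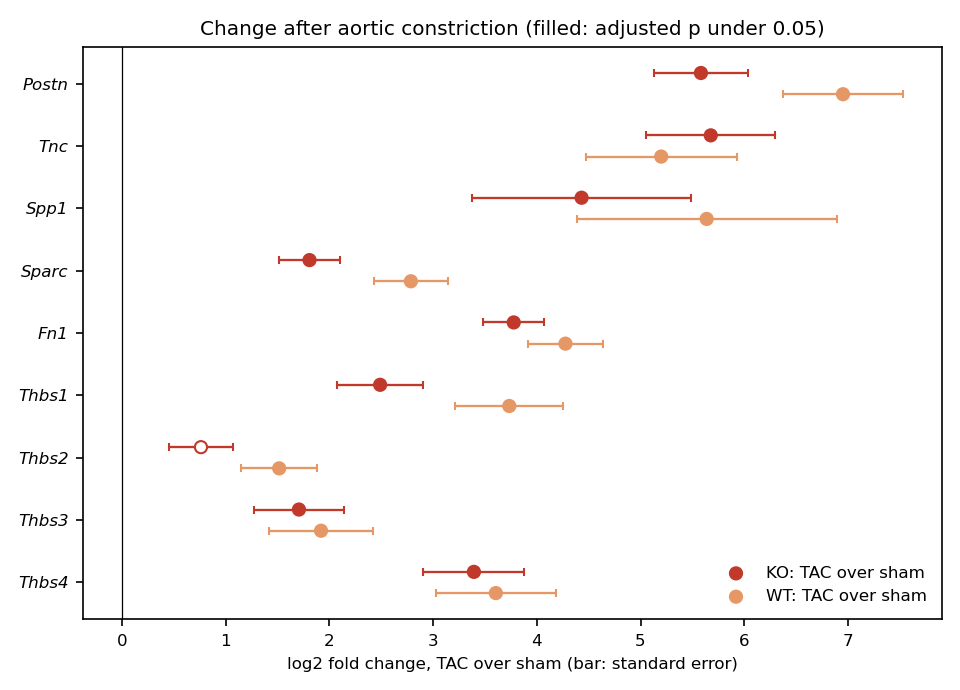
Log2 fold change of TAC over sham for the 9 genes, with KO and WT side by side for each gene and bars of 1 standard error, from edgeR. Filled points have an adjusted p under 0.05, and the open point is Thbs2 in KO at 0.76, while Postn in WT is furthest to the right at 6.95.

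Levels of different genes were compared per kilobase of the longest consensus coding transcript (CPM per kb). At rest Sparc stood alone, with 171 ± 22.6 CPM per kb in KO sham and 97.8 ± 28.4 in WT sham (SD, n = 3 and 2), followed by Postn with 7.83 ± 1.44 and 5.03 ± 0.324. After TAC Postn approached it, with means of 600.2 for Sparc and 375 for Postn in KO TAC, where their ranges were apart, and 674 and 623 CPM per kb in WT TAC, where they overlapped. Per kilobase of all annotated exons instead, Sparc averaged 409 and Postn 229 in WT TAC, and the ranges were apart (338 to 477 for Sparc and 141 to 331 for Postn). Postn made up 35.2% of the summed level of the 9 genes in KO TAC and 43.4% in WT TAC, against 4.23% in KO sham and 4.69% in WT sham. Sparc took 58.3% in KO TAC and 49.2% in WT TAC, against 91.2% in KO sham and 87.3% in WT sham. Fn1 followed after TAC by its mean, at 25.3 CPM per kb in KO and 27.2 in WT, but the ranges of Fn1, Thbs4, Spp1, Thbs1 and Thbs2 overlapped from each to the next in both groups. Per kilobase of all exons Fn1, at 19.4, was below Thbs4, at 25.7, and Spp1, at 23.6, in WT TAC. Thbs2, in contrast, came next after Sparc and Postn at rest, with means of 2.98 CPM per kb in KO sham and 2.91 in WT sham, but its range overlapped that of Fn1 in KO sham and that of Thbs4 in WT sham. Tnc was last at rest, with 0.0520 in KO sham and 0.0608 in WT sham, and with Thbs3 it held the last places after TAC, where their ranges overlapped.

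**Figure D3:**
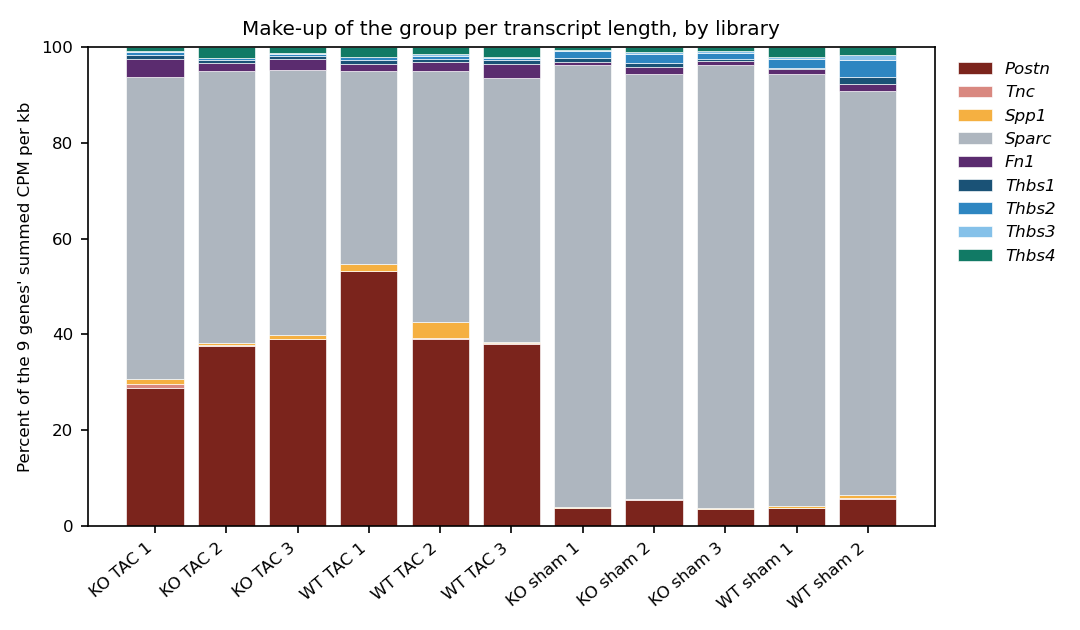
Share of each gene in the summed CPM per kb of the 9 genes, as 1 stacked bar for each of the 11 libraries, in percent. Sparc fills most of each sham bar, while Postn takes between 28.9% and 53.2% of the TAC bars and at most 5.71% of the sham bars.

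Each gene was then set beside every other tested gene with a mean of at least 1 CPM, by the root mean square difference of log2 CPM centred on each gene's own mean over the 11 libraries, where 0 would be an identical profile. Nearest to Postn was Lox, the lysyl oxidase that cross-links collagen, at 0.62 log2 units, and Col12a1, a chain of collagen XII, was also near at 0.72. Fn1 lay closest to Col1a2, a chain of collagen I, at 0.32, then Col8a1 at 0.45 and P4ha3, a prolyl hydroxylase, at 0.48. Tnc was near to Fn1 at 0.74 and to Ect2, a cytokinesis factor, at 0.79. Spp1 had the most distant neighbours, Timp1 at 0.94, Lgals3, the gene of galectin 3, at 0.98 and Clec4d, a lectin of myeloid cells, at 1.0. For Sparc they were Fam198b at 0.27, Meox1 at 0.28 and Serpinf1 at 0.30. The thrombospondins had separate neighbours. Those of Thbs1 were AA467197 at 0.51, Fstl1 at 0.53 and Emp1 at 0.54, and those of Thbs4 were Dclk3 at 0.42, Panx1, a membrane channel, at 0.44 and Mfap5, a microfibril protein, at 0.45. Thbs2 was closest to Rnf19b at 0.20, Gem at 0.22 and Gmds at 0.22, and Thbs3 to Sh3bp2 at 0.31, Baiap2 at 0.34 and Scara3 at 0.34. A gene with a small range over the libraries, such as Thbs2, comes near to more genes on this measure than one with a large range.

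Within the TAC groups the genes did not all follow the same library. WT TAC 3 was the lowest WT TAC library for 6 genes (Postn, Spp1, Sparc, Thbs1, Thbs2 and Thbs4) and WT TAC 2 the highest for 5 (Tnc, Spp1, Sparc, Thbs2 and Thbs3). In KO TAC 4 genes (Postn, Sparc, Thbs2 and Thbs4) were lowest in KO TAC 1, while Tnc, Spp1 and Fn1 were highest there. WT TAC 3 and KO TAC 1 also had the lowest shares of ribosomal protein transcripts among the TAC libraries. The shares were 0.789% in KO TAC 1 and 1.21% in WT TAC 3, against 2.92% to 6.32% in the other 4. Sham libraries held 0.595% to 1.58%, so the share is partly tied to surgery. The alternative settings fitted the share as a covariate and left out both libraries. Its part in these values was not otherwise tested.

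Some markers of the cells that can make these proteins passed the test after TAC. Of 8 activated fibroblast markers 6 were tested, and 4 rose in KO and 5 in WT, against 3.32% and 3.88% of all genes. The 8 markers summed to 244 to 379 CPM in KO TAC and 354 to 406 CPM in WT TAC. In sham libraries they summed to 111 to 169 CPM in KO and 62.5 to 77.8 CPM in WT. Cthrc1, one of them, was at 0 in all sham libraries, Chad in WT TAC and WT sham, and Cilp2 in WT sham. Any marker that passed the filter on low counts through TAC libraries alone had to be high there. The counts of rises here are therefore a description. KO TAC 1 had both the lowest sum and the lowest Postn level of the TAC libraries. The activated fibroblast list includes Acta2, which smooth muscle cells also express, so this sum does not stand for activated fibroblasts alone. Of 10 general fibroblast markers 2 rose and 1 fell in KO and 4 rose in WT, and the sums were 1483 to 1804 CPM in KO TAC, 1686 to 2596 CPM in WT TAC, 1620.0 to 1762 CPM in KO sham and 1309 to 1327 CPM in WT sham, with none at 0. Of 12 macrophage markers 3 rose in each genotype. Their sum was 519.6, 1191 and 1576 CPM in KO TAC 1 to 3 and 2209, 2546 and 457 CPM in WT TAC 1 to 3, against 244 to 459 CPM in KO sham and 235 to 377 CPM in WT sham. WT TAC 3 was lowest of the TAC libraries both for this sum and for Spp1, but KO TAC 1, with the next lowest sum, had the highest Spp1 of its group. Of 8 smooth muscle and pericyte markers 1 rose in KO and 3 in WT, with sums of 1814, 3389 and 3299 CPM in KO TAC and 3749, 5019 and 3307 CPM in WT TAC, compared with 1726 to 2040 CPM in KO sham and 1424 to 1973 CPM in WT sham, and KO TAC 1 was lowest of the TAC libraries both here and for Thbs4. The smooth muscle and pericyte list includes Des, the gene of desmin, which cardiomyocytes also express. Its sum therefore does not stand for smooth muscle cells and pericytes alone. Of 8 platelet markers, set beside Thbs1, which platelets store, 4 were tested, with 0 that rose in KO and 1 in WT. Their sum was 11.9 to 17.9 CPM in KO TAC and 7.79 to 47.2 CPM in WT TAC, compared with 8.75 to 16.7 CPM in KO sham and 8.66 to 12.8 CPM in WT sham, and Gp6 was at 0 in all groups but WT TAC. The part of these cells in the levels of the 9 genes was not tested.

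**Figure D4:**
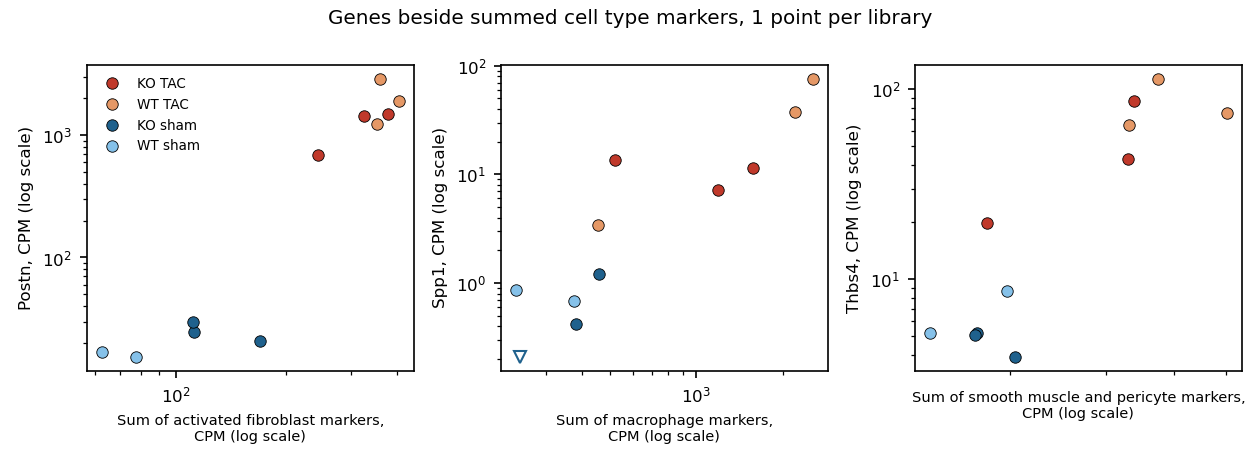
Postn, Spp1 and Thbs4 in CPM against the summed CPM of the activated fibroblast, macrophage and smooth muscle and pericyte markers, both axes logarithmic, with 1 point per library coloured by group. The smooth muscle and pericyte sum includes Des, which cardiomyocytes also express, and the activated fibroblast sum includes Acta2, which smooth muscle cells also express. The open triangle is KO sham 2 with 0 counts of Spp1. In the Postn panel each TAC library lies right of and above each sham library, while the marker sums of WT TAC 3 in the Spp1 panel and of KO TAC 1 in the Thbs4 panel fall within the range of the sham sums.

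Other lists of markers served as a check and are given for completeness. Endothelial markers summed to 532 to 1104 CPM in KO TAC, 331 to 724 CPM in WT TAC, 506 to 681 CPM in KO sham and 479 to 536 CPM in WT sham, and 0 of 8 were called. Markers of T cells and neutrophils (0 of 5 tested called) and of epicardium (0 of 3) stayed at 34.6 CPM or less in sum in each library. Cartilage and tendon markers summed to 10.1 to 20.6 CPM in KO TAC and 15.6 to 26.6 CPM in WT TAC, compared with 3.32 to 5.35 CPM in KO sham and 3.54 to 5.06 CPM in WT sham, with 0 of 3 tested called in KO and 1 of 3, Scx, in WT. Adipocyte markers summed to at most 0.458 CPM in KO TAC and 35.7 CPM in WT TAC, compared with 3.40 CPM in KO sham and 2.63 CPM in WT sham, and red blood cell markers to 254 to 2649 CPM in KO TAC and 294 to 3039 CPM in WT TAC, compared with 341 to 1076 CPM in KO sham and 146 to 639 CPM in WT sham, with 0 called in either list.

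Between genotypes no gene of the group was called. After sham surgery 0 of 9 passed, as did 0 of 14619 genes (0% called; 1.27% with an unadjusted p under 0.05; DESeq2 called 3 genes and limma-voom 0). The median log2 difference of KO over WT was 0.03 over the 9 genes and 0.02 over all genes. Sparc was the member with an unadjusted p under 0.05, with 394 ± 52.0 CPM in KO sham and 225 ± 65.4 CPM in WT sham (SD, n = 3 and 2), a log2 difference of 0.81 ± 0.32 (95% interval 0.11 to 1.51; edgeR unadjusted p = 0.0273, adjusted p = 1). Postn averaged 25.1 ± 4.63 CPM in KO sham and 16.1 ± 1.04 CPM in WT sham, and Fn1 15.3 ± 4.99 and 11.7 ± 0.372 CPM, with log2 differences of 0.64 ± 0.42 and 0.39 ± 0.30. For Sparc, Postn and Fn1 each KO sham library lay above each WT sham library, as for 6.8% of all genes, and for Thbs4 each lay below, as for 8.47%. The margins were small for Thbs4, at 5.19 CPM in KO sham 2 and 5.20 CPM in WT sham 2. They were small for Fn1 too, at 12.3 CPM in KO sham 1 and 11.9 CPM in WT sham 1. By library totals, without the TMM factor, both pairs of libraries change order. KO sham 2 has a title ending in F and both WT sham libraries have titles ending in M, so the title letter is not balanced here. The Thbs1 difference, 0.66 ± 0.47, was 0.00 without WT sham 1 and 1.86 without WT sham 2, and those of Tnc and Spp1 rest on counts too low to show a difference, with intervals of -1.90 to 1.58 and -3.45 to 2.15.

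After TAC 8 of the 9 genes were lower in KO by their point estimates, with Tnc the exception, but again 0 of 9 passed, as did 0 of 14619 genes (0% called; 6.36% with an unadjusted p under 0.05; DESeq2 called 6 genes and limma-voom 0). The median log2 difference was -0.58 over the 9 genes and 0.01 over all genes, of which 49.1% were below 0. Other lists leaned the same way, with medians of -0.49 for activated fibroblast, -0.25 for fibroblast and -0.19 for macrophage markers. The TGF-beta axis list had -0.21. Medians were above 0 for cardiomyocyte (0.07), smooth muscle and pericyte (0.32), endothelial (0.58) and T cell and neutrophil markers (0.63). The 9 genes share libraries and can vary together, so their count is a description. Spp1 averaged 10.7 ± 3.19 CPM in KO TAC and 38.8 ± 36.2 CPM in WT TAC (SD, n = 3 each), with a log2 difference of -1.86 ± 0.84 (95% interval -3.68 to -0.04; edgeR unadjusted p = 0.0463, adjusted p = 0.747). Leaving out WT TAC 2 gave -0.91 and leaving out WT TAC 3 gave -2.38 (adjusted p = 0.101), against -2.63 without both KO TAC 1 and WT TAC 3 (adjusted p = 0.0814). With no filter on low counts it passed at -1.84 (edgeR adjusted p = 0.0002) among the 206 genes then called. There the estimate was nearly the same, but its standard error was 0.36 against 0.84 in the main fit. Thbs2 averaged 29.8 ± 8.48 CPM in KO TAC and 49.1 ± 16.5 CPM in WT TAC, a log2 difference of -0.72 ± 0.31 (95% interval -1.39 to -0.05; unadjusted p = 0.0372, adjusted p = 0.747). Postn averaged 1202 ± 444 CPM in KO TAC and 1997 ± 830.1 CPM in WT TAC, a log2 difference of -0.73 ± 0.37 (95% interval -1.54 to 0.07; adjusted p = 0.747). Thbs1 was the gene whose groups did not overlap, with 41.1 ± 2.72 CPM in KO TAC and 61.6 ± 18.2 CPM in WT TAC and a log2 difference of -0.58 ± 0.39 (adjusted p = 0.752). Such a separation was seen in 3.34% of all genes with KO lower and in 4.41% with KO higher. Thbs4 averaged 49.8 ± 33.9 CPM in KO TAC and 84.4 ± 25.7 CPM in WT TAC, and its difference of -0.76 ± 0.44 was -1.43 without KO TAC 2. For Fn1 the interval was narrow, with 210.1 ± 26.6 CPM in KO TAC and 226 ± 26.5 CPM in WT TAC and a log2 difference of -0.11 ± 0.26 (95% interval -0.68 to 0.46). Sparc was likewise near 0, with 1381 ± 270.1 CPM in KO TAC and 1550.4 ± 264 CPM in WT TAC and -0.17 ± 0.28 (95% interval -0.78 to 0.45). Tnc stood at 0.32 ± 0.46 in KO over WT, and at -0.42 without KO TAC 1.

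**Figure D5:**
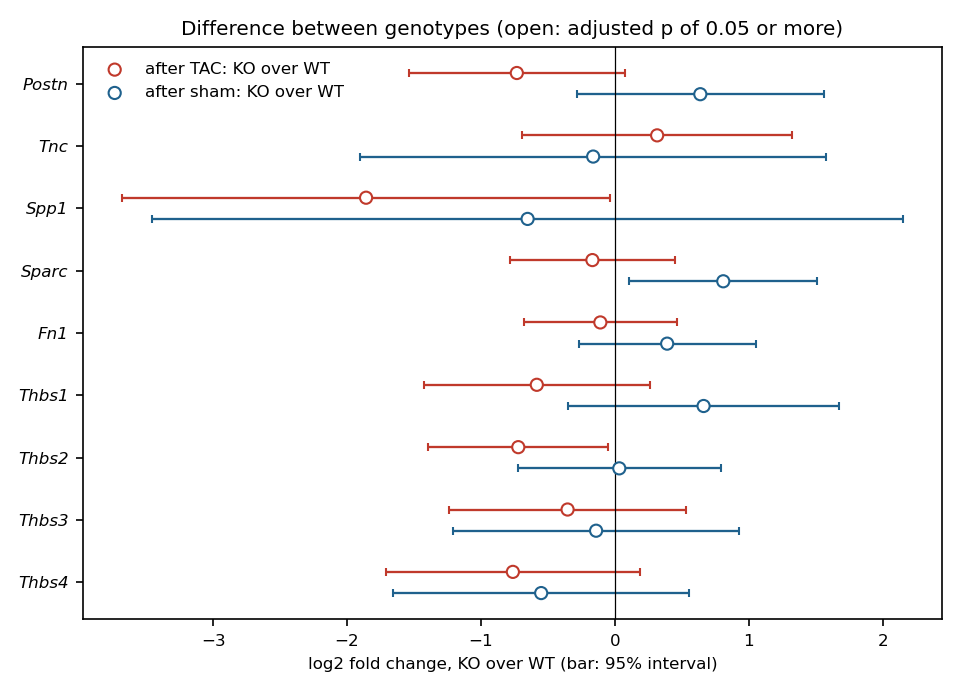
Log2 difference of KO over WT after TAC (upper of each pair) and after sham (lower) for the 9 genes, with 95% intervals from edgeR. All points are open, since none has an adjusted p under 0.05, and the intervals that leave out 0 are those of Sparc after sham and of Spp1 and Thbs2 after TAC.

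The difference of the TAC response between genotypes was tested as an interaction, the log2 fold change of TAC over sham in KO minus that in WT. None of the 9 genes passed (edgeR adjusted p from 0.992 to 0.994), and neither did any of the 14619 (0% called; 2.97% with an unadjusted p under 0.05; DESeq2 called 2 genes and limma-voom 0). It uses the same 11 libraries as the comparisons above and adds no separate evidence. The estimate was below 0 for 8 of 9 genes, with a median of -0.75, against 49.6% of all genes and a median of 0.01. Other lists leaned the same way, with medians of -0.62 for activated fibroblast, -0.56 for fibroblast and -0.36 for macrophage markers. The TGF-beta axis list had -0.38. Medians were above 0 for cardiomyocyte (0.12), smooth muscle and pericyte (0.09), endothelial (0.46) and T cell and neutrophil markers (2.25). The 9 genes share libraries and can vary together, so their count is a description. Postn had -1.37 ± 0.56 (95% interval -2.60 to -0.14; edgeR unadjusted p = 0.0314) and Sparc -0.98 ± 0.43 (95% interval -1.91 to -0.05; unadjusted p = 0.0407). Leaving out 1 library at a time, Postn ran from -1.63 to -1.01 and Sparc from -1.31 to -0.70. Thbs1 had -1.25 ± 0.61, which was -0.58 without WT sham 1 and -2.44 without WT sham 2. Spp1 had -1.21 ± 1.57, which was 0.07 without KO sham 1 and -0.28 without WT TAC 2. Fn1 (-0.50 ± 0.40), Thbs2 (-0.75 ± 0.47), Thbs3 (-0.21 ± 0.64) and Thbs4 (-0.21 ± 0.68) were below 0 with intervals that include 0, and Tnc (0.48 ± 0.93) was above.

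Relatives of these genes in the matrix responded in part. Of 23 related matricellular genes 15 passed the filter on low counts, and 4 rose in KO and 5 in WT, with 0 that fell and medians of 1.12 and 0.72 log2 units. Those that passed through TAC libraries alone had to be high there, so this count is a description. Over all genes tested 3.32% rose in KO and 3.88% in WT, with medians of 0.03 and 0.05. Fstl1, a follistatin-like secreted glycoprotein, rose by 2.93 ± 0.36 in KO (edgeR adjusted p = 0.00163) and 3.35 ± 0.43 in WT (adjusted p = 0.00237). Ccn4, a CCN family protein, rose by 2.02 ± 0.35 in KO (adjusted p = 0.00739) and 2.71 ± 0.42 in WT (adjusted p = 0.00536). Comp, the pentameric thrombospondin of cartilage, rose by 3.21 ± 0.77 in KO (adjusted p = 0.0345) and 4.02 ± 0.94 in WT (adjusted p = 0.0263), though its call was lost in 7 and 6 of 21 settings. Ccn2, known as connective tissue growth factor, had 2.17 ± 0.64 in KO (adjusted p = 0.0733) and rose by 4.49 ± 0.84 in WT (adjusted p = 0.0114). Tgfbi, a TGF-beta-induced relative of periostin, rose by 1.26 ± 0.31 in KO (adjusted p = 0.0385) and 1.37 ± 0.36 in WT (adjusted p = 0.0413), calls lost in 11 and 13 of 21 settings.

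Of 17 receptors and binding partners, all tested, 2 rose in KO, and in WT 2 rose and 1 fell, with medians of 0.52 and 0.85 log2 units. Over all genes tested 3.32% rose in KO, and in WT 3.88% rose and 3.04% fell, with medians of 0.03 and 0.05. Cd44, a receptor of osteopontin and hyaluronan, rose by 2.07 ± 0.29 in KO (edgeR adjusted p = 0.00275) and 1.60 ± 0.33 in WT (adjusted p = 0.0168), calls lost in 1 and 5 of 21 settings. Itgb3, an integrin chain that binds osteopontin and thrombospondins, rose by 2.37 ± 0.50 in KO (adjusted p = 0.0194) and had 1.86 ± 0.57 in WT (adjusted p = 0.0697). Its call in KO was lost in 5 of 21 settings. Itga5, the chain of the main fibronectin receptor, had 0.80 ± 0.27 in KO (adjusted p = 0.118) and rose by 1.19 ± 0.31 in WT (adjusted p = 0.0418), a call lost in 10 of 21 settings. Itgb6, a chain of an integrin that activates latent TGF-beta in epithelia, had -1.20 ± 0.55 in KO (adjusted p = 0.260) and fell by 2.28 ± 0.61 in WT (adjusted p = 0.0441), a call lost in 13 of 21 settings. Of 20 genes of the TGF-beta axis and of matrix processing 9 rose in KO and 11 in WT, with 0 that fell and medians of 1.11 and 1.30. These rises, too, stand against 3.32% of all genes in KO and 3.88% in WT. Receptors or TGF-beta axis genes that passed the filter through TAC libraries alone had to be high there, so both counts are a description. Lox rose by 4.70 ± 0.62 in KO (adjusted p = 0.00217) and 6.52 ± 0.81 in WT (adjusted p = 0.00211), and Mmp14, a membrane-bound matrix protease, by 2.70 ± 0.37 in KO (adjusted p = 0.00262) and 2.90 ± 0.44 in WT (adjusted p = 0.00442). Timp1, an inhibitor of matrix proteases, rose by 4.05 ± 0.65 in KO (adjusted p = 0.00508) and 4.63 ± 0.78 in WT (adjusted p = 0.00700). Plat, tissue plasminogen activator, rose by 1.49 ± 0.28 in KO (adjusted p = 0.0110) and 1.17 ± 0.32 in WT (adjusted p = 0.0456), calls lost in 3 and 13 of 21 settings. The calls in WT named here and among the relatives rest on the 2 WT sham libraries. Without WT sham 1 all of them were lost (edgeR adjusted p from 0.0538 to 0.245), and without WT sham 2 all but those of Fstl1, Lox and Mmp14 (adjusted p from 0.0688 for Ccn4 to 0.363 for Plat). Without WT TAC 2 the calls lost were those of Comp, Tgfbi, Cd44, Itga5, Itgb6 and Plat (adjusted p from 0.0501 to 0.161), and without WT TAC 1 those of Tgfbi, Itgb6 and Plat (adjusted p from 0.0933 to 0.144). Leaving out KO TAC 2 or any KO sham library cost 4 of these calls, those of Tgfbi, Itga5, Itgb6 and Plat (adjusted p from 0.0564 to 0.0729). Of the calls in KO named here, Tgfbi was lost without any 1 of KO TAC 1 to 3, KO sham 1 to 3 and WT sham 1 and 2, and Comp without KO TAC 2, KO TAC 3 or any KO sham library. Itgb3 was lost without KO TAC 3 or any KO sham library and Plat without KO sham 1 or 3 (adjusted p of all these losses from 0.0525 to 0.154). In these 3 lists 0 genes were called between genotypes or for the interaction.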

How the data were processed

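Raw counts per gene, whole numbers with totals that differ between libraries, were deposited by the authors for ventricular RNA of 11 libraries, and 0 columns were left out. Per the submitters' processing notes STAR 2.5.1, featureCounts, DESeq2 and build GRCm38 were used. Their roles, the annotation, strand setting and filters are not given in the sources used here. Symbols and positions came from GENCODE M21, which matched 46005 of 46517 identifiers, and the other 512 held 0.0198% of counts.

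Groups follow the genotype and treatment labels. Replicates were numbered in accession order, and pairs within groups differed by far more than sampling noise, with a chi-square per gene of 31.6 or more. In R 4.3.3, edgeR 4.0.16 kept genes by filterByExpr, scaled libraries by TMM and fitted 1 mean per group (7 residual degrees of freedom), with 2-sided quasi-likelihood tests and Benjamini-Hochberg adjustment over 14619 genes. Standard errors are the log2 fold change over the root of F, and log2 CPM values have a prior count of 2. The code was tested on simulated counts. Alternatives were DESeq2 1.42.0, limma 3.58.1 (voom), library totals, no filter, covariates, fewer libraries and each comparison fitted on its 2 groups alone.

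The 9 genes, the context lists and the markers were chosen with earlier results of these data known. Named beside the 9 genes are the 3 nearest profiles of each and, per list and comparison, up to 4 called rises and 4 falls with the smallest p, of which 2 genes are not reported here. The 95% intervals of log2 differences use these standard errors, which are approximate, and the limit of 3 counts covers counting error only.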

Additional observations from a re-analysis of the deposited data

How the results depend on the processing

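Each comparison was repeated under 21 other settings (20 for the interaction). Postn and Fn1 kept both TAC calls under all of them, and no TAC response of the 9 genes changed sign. Genes called for TAC in KO numbered 687, against 1385 with library totals, 1331 with no filter on low counts, 1499 by DESeq2, 2324 with the ribosomal protein share as covariate, 2117 without both KO TAC 1 and WT TAC 3, 102 in titles ending in M (a choice made after seeing the data), and 226 (without KO sham 1) to 996 (without WT TAC 3) with 1 library left out. In WT they numbered 1011, against 2243 with no filter, 2197 by DESeq2, 608 with the title letter as covariate, 4374 without both, 204 in titles ending in M, 465 from the 2 groups alone, and 30 (without WT sham 1) to 2663 (without WT TAC 3). Of the 9 genes, those called were 3 in KO in titles ending in M (Postn, Tnc and Fn1) and 6 to 8 with 1 library left out, and 4 to 9 in WT, with 4 without WT sham 1 and 5 without WT sham 2. Of the 9, 1 (Spp1) was called between genotypes after TAC with no filter. Between genotypes 0 genes were called, against 20 after sham and 206 after TAC with no filter, 3 and 6 by DESeq2, 2 and 14 without both libraries, and 4 after sham from the 2 groups alone. For the interaction the 0 became 80 with no filter, 2 by DESeq2 and 1 without both. With 1 library left out these 3 counts stayed at 0.

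Signs that turned were all of uncalled values, and the cause was not tested. For KO over WT after sham, Tnc was 0.16 with the title letter as covariate, Spp1 0.024 in titles ending in M, and Thbs2 -0.091 with the title letter, -0.070 with the ribosomal protein share and -0.040 in titles ending in M. For KO over WT after TAC, Tnc was -0.18 with the ribosomal protein share and -0.53 without both libraries, and Fn1 0.021 with library totals. For the interaction, Tnc was -0.18 and -0.37 in the same settings, Spp1 0.84 by limma-voom, and Thbs4 0.13 with the ribosomal protein share and 0.21 in titles ending in M. Leaving out 1 library gave, after sham, -0.53 to 0.26 for Tnc, -1.93 to 0.018 for Spp1, -0.15 to 0.24 for Thbs2 and -0.49 to 0.31 for Thbs3. After TAC it gave -0.42 to 0.75 for Tnc, -0.67 to 0.10 for Thbs3 and -0.22 to 0.0083 for Fn1. For the interaction it gave -0.26 to 0.91 for Tnc, -1.88 to 0.070 for Spp1, -0.66 to 0.25 for Thbs3 and -0.89 to 0.13 for Thbs4.

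No paired analysis was possible because the labels give no replicate numbers that groups share. Title numbers fall in separate ranges for TAC and sham samples, so a batch that followed them cannot be told apart from surgery. Among sham samples they also fall in separate ranges for KO and WT. Such a batch thus cannot be told apart from genotype after sham either, and would enter the interaction. With 2 WT sham libraries the WT response rests on few values, and with 0 to 13 counts the sham levels of Tnc and Spp1 are imprecise.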
